A study of Mus musculus with 2 samples.

Results

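The 10 genes described here are regulators of the myeloid blood lineages: the transcription factor genes Cebpa, Cebpb, Cebpd, Cebpe, Spi1 and Gfi1, the cytokine receptor genes Csf3r and Csf2rb, and the chemokine receptor genes Cxcr2 and Cxcr4. They were chosen by symbol, through the Ensembl identifier of each row, and all 10 were present among the 21461 nuclear protein-coding genes of the gene tables, with 22 transcript rows between them. Total RNA was sequenced from primary erythroblasts, red cell precursors that still have a nucleus, taken from male adult mice of the strain C57BL/6J at an age of 5 to 6 weeks, of unknown health state, and the labels give no treatment and no altered allele. The isolation protocol they link is titled for progenitors of bone marrow. The 2 libraries form 1 group, biological replicates 1 and 2, and each began with 1 ng of RNA plus a spike-in. The labels list 1 donor entry with a biosample per library, without telling whether these were different animals, so the spread between the libraries may be technical. With 1 group there is no comparison of conditions and no p-value is given.

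Blood lineages are chosen and carried through by small sets of transcription factors that act together and against each other. PU.1, the product of Spi1, and the C/EBP proteins drive granulocyte and monocyte genes, and PU.1 and the erythroid factor GATA1 are known to oppose each other. The receptors tell such cells when to grow and where to go: G-CSF through Csf3r, the cytokines GM-CSF, IL-3 and IL-5 through the beta chain Csf2rb, and chemokines through Cxcr2 and Cxcr4.

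Replicate 1 held 80806663 expected counts and replicate 2 held 117032607, of which nuclear protein-coding genes took 5.44% and 5.82%. Levels are therefore given as rescaled TPM, the deposited TPM (transcript abundance corrected for length) divided by the summed TPM of nuclear protein-coding genes and multiplied by 1000000. On this scale 3 counts, the most that a count of 0 allows, equal 0.892 (replicate 1) and 0.555 (replicate 2) when a transcript is 1 kb long. Such limits and the intervals given further on cover counting error only. The 10 genes held 2660.25 and 4454.36 expected counts in all. All 14 listed erythroid markers were at a rescaled TPM of 1 or more in both libraries, but so were all 15 neutrophil, 14 monocyte and macrophage and 10 basophil, mast cell and eosinophil markers. By summed level the erythroid markers were the highest of these lists, as given further on. Most of that sum came from the globin genes Hbb-bs and Hba-a1.

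The C/EBP proteins bind DNA through a shared basic region, and the stretch of coding sequence most alike in Cebpa, Cebpb and Cebpe lies in it. It is shown to let these 3 members be compared, since reads from near-identical sequence could not be told apart. Cebpd was left out of this window. The 60 coding bases come from the GENCODE M21 transcripts, read 5′ to 3′ on the coding strand, and capitals mark the 48 bases that these 3 genes share. They lie on chromosomes 7, 2 and 14, in the order printed.
Cebpa-201: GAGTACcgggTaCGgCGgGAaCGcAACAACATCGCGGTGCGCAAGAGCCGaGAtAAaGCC
Cebpb-201: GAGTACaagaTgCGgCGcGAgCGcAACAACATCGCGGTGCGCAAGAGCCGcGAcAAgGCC
Cebpe-201: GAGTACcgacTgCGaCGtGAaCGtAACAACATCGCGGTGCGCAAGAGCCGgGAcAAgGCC
Each of Cebpb and Cebpe matched Cebpa at 85% of these bases. Over the whole transcripts the longest run shared by any pair of the 4 C/EBP genes was 29 bases, and 0% of the 50-base stretches of any one occurred in another.

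Csf2rb has a closer relative. Csf2rb2, its neighbour on chromosome 15, encodes a second beta chain that in the mouse serves the IL-3 receptor, and the coding sequences were identical at 95.2% of 2631 aligned bases. The longest run shared by the transcripts was 242 bases, and 18.9% of the 50-base stretches of Csf2rb-201 occurred in Csf2rb2-201. The 90 coding bases below are the window with the most differences, shown because bases that differ are what assigns a read to either gene. Capitals mark the 16 bases that differ.
Csf2rb-201: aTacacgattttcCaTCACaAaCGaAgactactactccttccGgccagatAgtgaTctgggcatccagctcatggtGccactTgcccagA
Csf2rb2-201: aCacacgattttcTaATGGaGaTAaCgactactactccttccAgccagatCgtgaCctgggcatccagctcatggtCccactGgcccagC

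Among the transcription factors, Spi1 stood highest and the 4 C/EBP genes and Gfi1 were lower. Spi1 (ENSMUSG00000002111, mm10 chromosome 2, 91082390 to 91115756, plus strand) had 138 rescaled TPM in replicate 1 and 62.2 in replicate 2, from 410 and 448 counts. Its mean was 99.9 ± 53.4 (SD, n = 2), which ranked 909 of 21461 genes, in the top 4.24%. The libraries differed in this TPM much more than in read number, and the transcripts behind that are described further on.

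Cebpe, whose product acts late in granulocyte maturation, was the highest of the C/EBP genes. Cebpe (ENSMUSG00000052435, chromosome 14, 54710360 to 54712174, minus strand) had 22.9 and 30.2 rescaled TPM in replicates 1 and 2 (26.5 ± 5.18, SD, n = 2), from 85 and 177 counts. It carried 48.0% and 42.4% of the summed level of the 4 C/EBP genes, which was 47.7 rescaled TPM in replicate 1 and 71.2 in replicate 2. The ranges of Cebpe and of each other C/EBP gene did not overlap.

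The other C/EBP genes lay close together. Cebpa (ENSMUSG00000034957, chromosome 7, 35119293 to 35121928, plus strand), needed for granulocyte and monocyte progenitors to form, had 9.62 and 17.3 rescaled TPM (13.4 ± 5.40, SD, n = 2), from 81 and 233 counts. Cebpd (ENSMUSG00000071637, chromosome 16, 15887286 to 15891031, plus strand), a factor of the inflammatory response, had 5.99 and 14.7 rescaled TPM (10.3 ± 6.17, SD, n = 2), from 21 and 82 counts. Cebpb (ENSMUSG00000056501, chromosome 2, 167688915 to 167690418, plus strand), which drives emergency granulocyte production, had 9.20 and 9.02 rescaled TPM (9.11 ± 0.123, SD, n = 2), from 42 and 66 counts. Cebpa and Cebpd stood higher in replicate 2, and Cebpb was level. The range of Cebpd overlapped those of Cebpa and Cebpb, while Cebpa lay narrowly above Cebpb in replicate 1 and further above it in replicate 2. In shares of the C/EBP sum, Cebpa held 22.2 ± 2.87%, Cebpd 16.6 ± 5.73% and Cebpb 16.0 ± 4.67% (SD, n = 2).

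Gfi1, which encodes a repressor needed for neutrophils to form, was of like level. Gfi1 (ENSMUSG00000029275, chromosome 5, 107716657 to 107726036, minus strand) had 6.20 rescaled TPM in replicate 1 and 14.9 in replicate 2 (10.6 ± 6.15, SD, n = 2), from 52 and 200 counts. Every Gfi1 read was assigned to Gfi1-203, which starts at 107725805, and none to Gfi1-201, which starts at 107724343. The posterior mean estimates spread the gene more widely, giving Gfi1-203 62.3% and 85.0% and Gfi1-201 9.05% and 4.26%. The 0 reads of Gfi1-201 are thus 1 of several fits to the same reads.

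RefSeq promoters (GRCm38.p6, 250 bases before to 50 after a start) were listed for 6 of the 10 genes, as 7 entries, and Gfi1 has 2 of them. Its entries are shown because the reads favoured transcripts of the upstream start. The upstream entry is chr5:107725756-107726055 and the downstream one chr5:107724294-107724593, both read on the minus strand. Capitals mark a match to the C/EBP motif TTGCNNAA, searched on both strands.
Gfi1 upstream: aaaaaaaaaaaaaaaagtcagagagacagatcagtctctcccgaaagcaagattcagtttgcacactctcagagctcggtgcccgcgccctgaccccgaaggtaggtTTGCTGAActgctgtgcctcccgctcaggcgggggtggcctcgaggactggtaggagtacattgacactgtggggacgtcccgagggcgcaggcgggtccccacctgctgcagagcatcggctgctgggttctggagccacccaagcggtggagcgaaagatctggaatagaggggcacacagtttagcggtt
Gfi1 downstream: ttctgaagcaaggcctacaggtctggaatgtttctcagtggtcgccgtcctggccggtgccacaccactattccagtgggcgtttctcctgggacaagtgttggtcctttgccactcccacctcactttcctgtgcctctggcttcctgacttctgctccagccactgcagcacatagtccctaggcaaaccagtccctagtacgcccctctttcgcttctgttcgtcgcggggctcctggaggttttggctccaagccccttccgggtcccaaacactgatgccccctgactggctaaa
Of the 7 entries, the upstream one of Gfi1 alone held the C/EBP motif, which occurs in 10.8% of the 32851 mouse promoter entries of the same length. The PU.1 motif GAGGAAG (13.6% of promoters) matched Csf3r, the GFI1 motif AAATCNC (11.7%) matched Cxcr2, and the GATA motif AGATAA (11.2%) matched none of the 7 entries. The Csf3r entry, chr4:126024409-126024708, holds the start of Csf3r-202 at 126024550. It does not hold the start of Csf3r-201, the leading transcript, at 126027292. A match is a run of letters and not a shown binding site or a cause.

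The cytokine receptors summed to 97.7 rescaled TPM in replicate 1 and 122 in replicate 2. Csf3r (ENSMUSG00000028859, chromosome 4, 126024550 to 126044440, plus strand), the receptor for G-CSF, the main growth signal of neutrophils, had 75.9 and 88.3 rescaled TPM (82.1 ± 8.72, SD, n = 2), from 518 and 1088 counts. It ranked 1094, in the top 5.10% of nuclear protein-coding genes. Csf2rb (ENSMUSG00000071713, chromosome 15, 78325752 to 78353847, plus strand) had 21.8 and 33.3 rescaled TPM (27.6 ± 8.15, SD, n = 2), from 338.25 and 829.36 counts. Both receptors stood higher in replicate 2, and all values of Csf3r lay above those of Csf2rb.

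An expected count that is not whole comes from reads divided among several matches, and Csf2rb was the 1 member of the 10 with such counts. Csf2rb2 had 6.84 and 2.35 rescaled TPM, from 103.75 and 54.64 counts. Summed, the pair held 442 and 884 counts, whole numbers in both libraries, and 28.7 and 35.7 rescaled TPM. Csf2rb carried 76.1% of that sum in replicate 1 and 93.4% in replicate 2, so its split from Csf2rb2 was less steady than the sum.

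The chemokine receptors summed to 181 rescaled TPM in replicate 1 and 144 in replicate 2, most of it Cxcr4. Cxcr4 (ENSMUSG00000045382, chromosome 1, 128588199 to 128592293, minus strand), the CXCL12 receptor that holds blood cells in the marrow, had 155 and 124 rescaled TPM (139 ± 21.7, SD, n = 2), from 855 and 1024 counts. It was the highest of the 10 genes, ranked 661 and in the top 3.08%. Cxcr2 (ENSMUSG00000026180, chromosome 1, 74153989 to 74161246, plus strand), which draws mature neutrophils out of the marrow, had 26.3 and 19.6 rescaled TPM (23.0 ± 4.73, SD, n = 2), from 258 and 307 counts. Both were higher in replicate 1 on this scale, and the values of Cxcr4 lay far above those of Cxcr2 in each library.

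**Figure D1:**
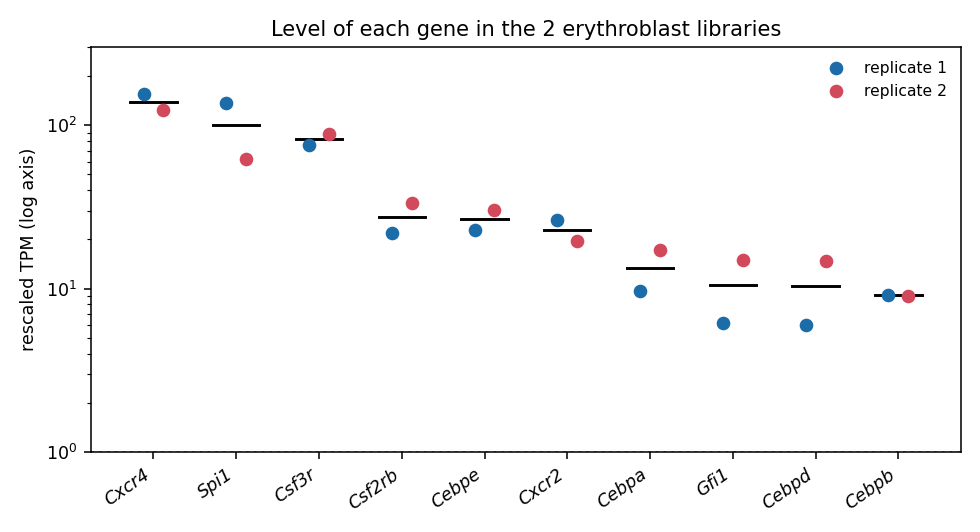
Level of each of the 10 genes in rescaled TPM on a log axis, with a point for each of the 2 libraries and a bar for their mean. Cxcr4, Spi1 and Csf3r lie highest, with means of 139, 99.9 and 82.1, and Cebpa, Gfi1, Cebpd and Cebpb lie lowest, with means of 13.4 to 9.11.

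By mean, the order ran Cxcr4, Spi1, Csf3r, Csf2rb, Cebpe, Cxcr2, Cebpa, Gfi1, Cebpd and Cebpb. Only 2 of the 9 pairs of neighbours had libraries whose ranges did not overlap, Csf3r over Csf2rb and Cxcr2 over Cebpa. The genes thus fell into a high set of 3, a middle set of 3 and a low set of 4, within which neighbours did not differ beyond their spread. Every one of the 10 genes was at 1 rescaled TPM or more in each library, as did 42.9% of the 21461 nuclear protein-coding genes, and all 10 reached 5, as did 31.1%. On the deposited TPM, 6 of 10 reached 1, against 14.5% of these genes. The median of the 10 genes was 22.3 rescaled TPM in replicate 1 and 24.9 in replicate 2, beside 14.5 in each library over the genes that reached 1 and 0.642 and 0.392 over all. Bulk RNA cannot tell few cells with much of a transcript from many cells with little, so these levels say nothing of which cells held it.

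The difference in Spi1 TPM between the libraries lay mostly in a short transcript model. Spi1-201, the 2034-base coding transcript that starts at 91096096, had 283.61 and 399.67 counts and 44.5 and 39.2 rescaled TPM in replicates 1 and 2. Spi1-204, a 544-base model with an incomplete 3′ end that starts upstream at 91082390, had 104.37 and 33.89 counts and 75.7 and 15.9 rescaled TPM. Spi1-204 thus took 55.0% of Spi1 TPM in replicate 1 and 25.7% in replicate 2, but only 25.5% and 7.56% of its reads. The short model weighs heavily per read: Spi1-201 alone differed between the libraries by a log2 ratio of 0.18, while the whole gene differed by 1.15 on the same scale. Spi1-202, which is noncoding and starts upstream at 91082408, and Spi1-203, a 402-base model with an incomplete 3′ end, had at most 14.22 and 7.81 counts.

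Csf3r was also divided among short and long models. Csf3r-201, the full coding transcript of 3160 bases, had 371.64 and 947.78 counts, and took 48.1% of the gene's TPM in replicate 1 and 65.9% in replicate 2. Csf3r-203, a noncoding model of 921 bases with an incomplete 5′ end, had 83.12 and 120.82 counts and 41.4% and 32.9% of TPM. Csf3r-202, a second coding transcript with an upstream start, took 6.75% and 1.22%. Csf3r-201 led in both libraries, and its level of 36.6 and 58.2 rescaled TPM is a lower reading of Csf3r than the gene total.

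Cxcr4 and Cxcr2 were simpler. Cxcr4-201 had 843.29 and 953.66 counts and 97.1% and 86.0% of the gene's TPM, and Cxcr4-202, a 902-base model with an incomplete 3′ end, had 11.71 and 70.34 counts and 2.93% and 14.0%. All Cxcr2 reads were assigned to Cxcr2-202, with 96.1% and 96.0% by the posterior mean. Cebpa, Cebpb, Cebpd, Cebpe and Csf2rb had 1 transcript row each. Among the 5 genes with several, the leading transcript by TPM was the same in both libraries for 4, Spi1 being the exception.

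**Figure D2:**
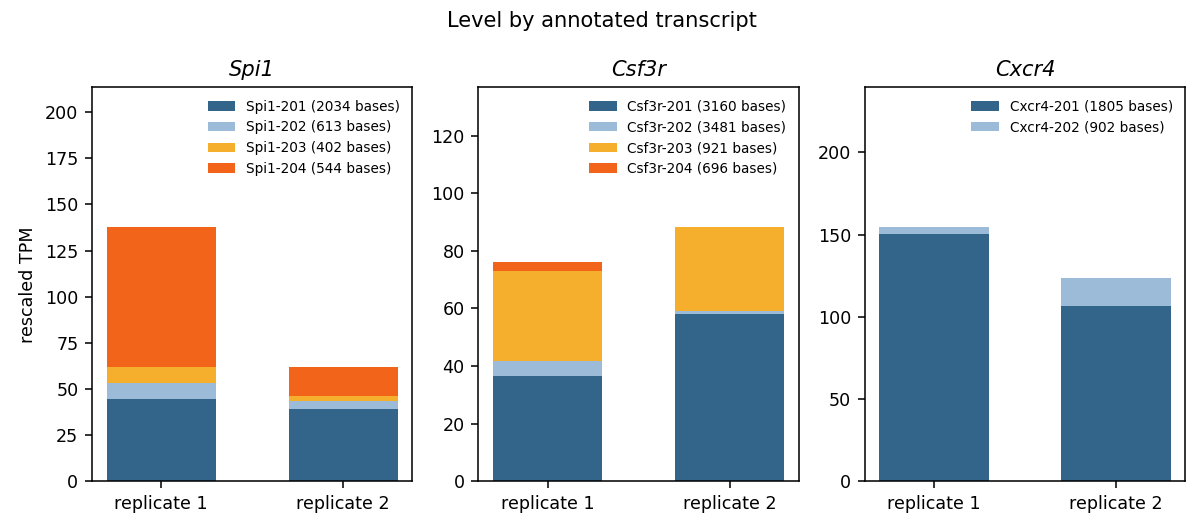
Level in rescaled TPM of each annotated transcript of Spi1, Csf3r and Cxcr4, stacked for replicate 1 and replicate 2 in each panel. The share of Spi1-204 is 55.0% in replicate 1 and 25.7% in replicate 2, while the Spi1-201 segment is of similar height at 44.5 and 39.2.

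Exons of 4 members overlap a gene on the opposite strand, and whether counting used strand is not given in the sources used here. Of the exonic bases of Cebpb, 312 of 1504 (20.7%) are shared with Tmem189, which had 149 and 244 counts. Cebpd shares 562 of 3746 exonic bases (15.0%) with Spidr, which had 80 and 197 counts, although the deposited Cebpd model spans only 1180 bases. The overlaps of Cebpa with Gm45091 and of Gfi1 with A430072P03Rik cover 1.93% and 3.17%. Cebpb and Cebpd are also the members with the fewest reads, and the part of these overlaps in their counts was not tested.

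In all, 6 members stood higher in replicate 2 once counts were scaled between the libraries by the TMM method, which sets the bulk of genes level, while Cebpb did not differ beyond counting error. By sign alone, 7 members were higher in replicate 2 with TMM and 2 when counts were scaled to the spike-in. Over all 11343 genes with at least 20 summed counts, 5730 were higher in replicate 2 with TMM. The like number on the spike-in scale was not computed. Gfi1 had a log2 ratio of replicate 1 to replicate 2 of -1.27 (exact 95% interval -1.77 to -0.85), Cebpd of -1.26 (-2.09 to -0.61), Cebpa of -0.87 (-1.26 to -0.51) and Csf2rb of -0.65 (-0.83 to -0.46). These 4 were the members more than 1.5 times apart, all higher in replicate 2. Summed with Csf2rb2, a form chosen after seeing the data, Csf2rb gave -0.35 (-0.52 to -0.19) and was no longer past that fold. Among the 11343 genes with at least 20 summed counts, 43.7% were more than 1.5 times apart in either direction. With replicate 2 higher, the share was 22.5%. In a set of only 10 genes, the members' share is close to the background in all and above it in direction. That background is not matched for depth. It was 58.8% over genes averaging 30 to 100 counts, where Cebpd and Cebpb lie. The share was 34.8% at 100 to 300 counts, the class of Gfi1 and Cebpa, and 13.7% at 300 to 1000, the class of Csf2rb.

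The members that stood higher in replicate 1 were Spi1, Cxcr2 and Cxcr4. Spi1 had a log2 ratio of 0.52 (exact 95% interval 0.32 to 0.71), Cxcr2 of 0.39 (0.15 to 0.64) and Cxcr4 of 0.39 (0.25 to 0.52). Csf3r at -0.42 (-0.58 to -0.27) and Cebpe at -0.41 (-0.80 to -0.03) were modestly higher in replicate 2, and Cebpb at -0.01 (-0.60 to 0.57) was level. On this scale both chemokine receptors were higher in replicate 1 and both cytokine receptors in replicate 2, whereas all of them were higher in replicate 1 when scaled to the spike-in.

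Counting error alone was exceeded by 9 of the 10 members, whose intervals left out 0. How many of all genes had such intervals was not computed, so this count has no background beside it. Other genes varied between the libraries as well. The median absolute log2 ratio was 0.73 over the 3319 genes averaging 30 to 100 counts, 0.42 over the 3064 genes averaging 100 to 300 and 0.26 over the 1863 genes averaging 300 to 1000. Measured against its own class, 7 members lay above the median and 2, Gfi1 and narrowly Csf2rb, above the 90th percentile. The median absolute log2 ratio was 0.47 over the 10 members and 0.49 over all 11343 genes, and the median signed ratios were -0.41 and -0.01.

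**Figure D3:**
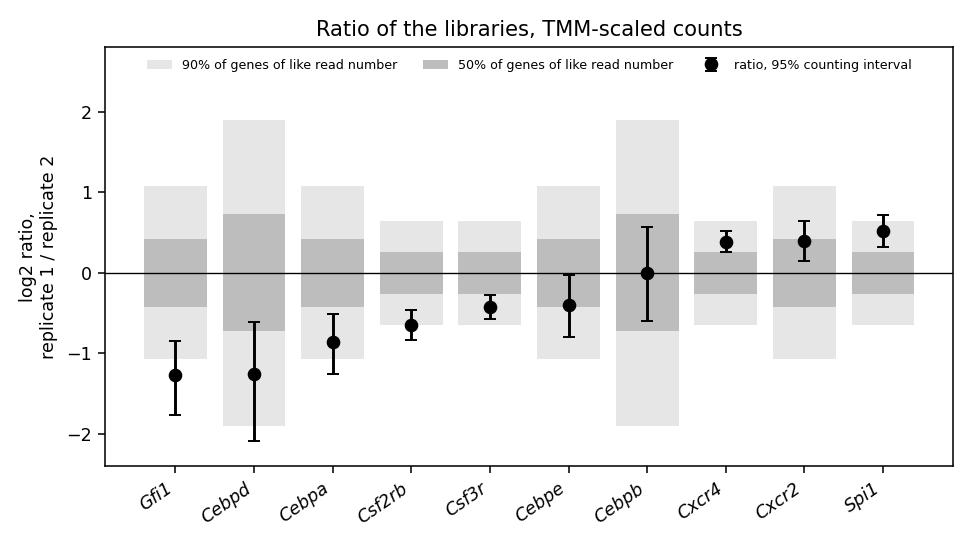
Log2 ratio of replicate 1 to replicate 2 from TMM-scaled counts, with exact 95% counting intervals, over bands that hold 50% (dark) and 90% (light) of genes with like read numbers. Gfi1 at -1.27 lies outside its light band, Csf2rb at -0.65 lies at the edge of its own, and Cebpb at -0.01 lies at the centre. Scaled to the spike-in, the ratios lie about 1.18 higher.

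The sign of these ratios depends on the scaling. The spike-in RNA held 1790 counts in replicate 1 and 6408 in replicate 2, and scaling to it shifts log2 ratios by 1.18, and slightly less for genes with few counts because of the prior count. On that scale 8 of the 10 members were higher in replicate 1, 6 of them by more than 1.5 times: Spi1 at 1.71, Cxcr2 and Cxcr4 at 1.58, Cebpb at 1.15 and Cebpe and Csf3r at 0.77. Csf2rb at 0.54 and Cebpa at 0.31 were under that fold. Gfi1 at -0.10 and Cebpd at -0.12 were still lower in replicate 1, with no interval computed on that scale. The shift falls on all genes and not on the members alone. The shares of all genes higher in replicate 1 or past 1.5 times on that scale were not computed, so these counts have no background beside them.

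Ratios between genes within a library do not depend on the scaling, and 8 of 10 such pairs kept their sign in both libraries. Among the C/EBP genes, Cebpe exceeded Cebpa by a log2 ratio of 1.25 in replicate 1 and 0.81 in replicate 2 (1.03 ± 0.31, SD, n = 2). Cebpb lay below Cebpa by ratios of -0.07 and -0.94 (-0.50 ± 0.62) and Cebpd by -0.68 and -0.23 (-0.46 ± 0.32). Of the 3, only the excess of Cebpe was much larger than its spread.

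Setting Spi1 against Gata1, the factor that directs red cell genes, gave opposite signs. Spi1 had 138 and 62.2 rescaled TPM, against 48.1 and 80.2 for Gata1, a log2 ratio of 1.52 in replicate 1 and -0.37 in replicate 2 (0.57 ± 1.33, SD, n = 2). With Spi1-201 alone in place of the gene, a form chosen after seeing the data, it was -0.11 and -1.03 (-0.57 ± 0.65, SD, n = 2). That form sets a part of Spi1 against the whole of Gata1. Which of the genes was higher could not be stated from these libraries.

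Gfi1 was clearly below its erythroid and megakaryocytic paralog. Gfi1b, which encodes the related repressor that red cell precursors need, had 47.3 and 47.7 rescaled TPM, so that Gfi1 over Gfi1b gave -2.93 and -1.68 (-2.303 ± 0.89, SD, n = 2). Gfi1b was level between the libraries, and the spread came from Gfi1.

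The receptor for G-CSF was set beside the receptors for erythropoietin and M-CSF. Csf3r over Epor gave log2 ratios of 0.16 and 0.34 (0.25 ± 0.13, SD, n = 2), with Epor at 67.8 and 69.6 rescaled TPM. Against Csf1r, the receptor for M-CSF that marks monocytes and macrophages, Csf3r was higher by 1.42 and 1.88 (1.65 ± 0.33), with Csf1r at 28.4 and 23.9 rescaled TPM. With the leading transcript Csf3r-201 alone in place of the gene, a form chosen after seeing the data, Csf3r over Epor gave -0.89 and -0.26 (-0.57 ± 0.45, SD, n = 2). This form sets a part of Csf3r against the whole of Epor, which can only lower the ratio. Gene over gene, Csf3r was slightly the higher in both libraries, but this order depends on the transcript models counted.

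Csf2rb met 1 partner on even terms. Csf2ra, the alpha chain that binds GM-CSF, had 38.5 and 28.8 rescaled TPM, and Csf2rb over Csf2ra gave -0.82 and 0.21 (-0.30 ± 0.73, SD, n = 2), with a change of sign. Csf2rb over Csf2rb2 gave 1.67 and 3.82 (2.75 ± 1.52), subject to the sharing of reads between these genes. The closest agreement was for the chemokine receptors, where Cxcr2 over Cxcr4 gave -2.56 and -2.66 (-2.61 ± 0.07).

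**Figure D4:**
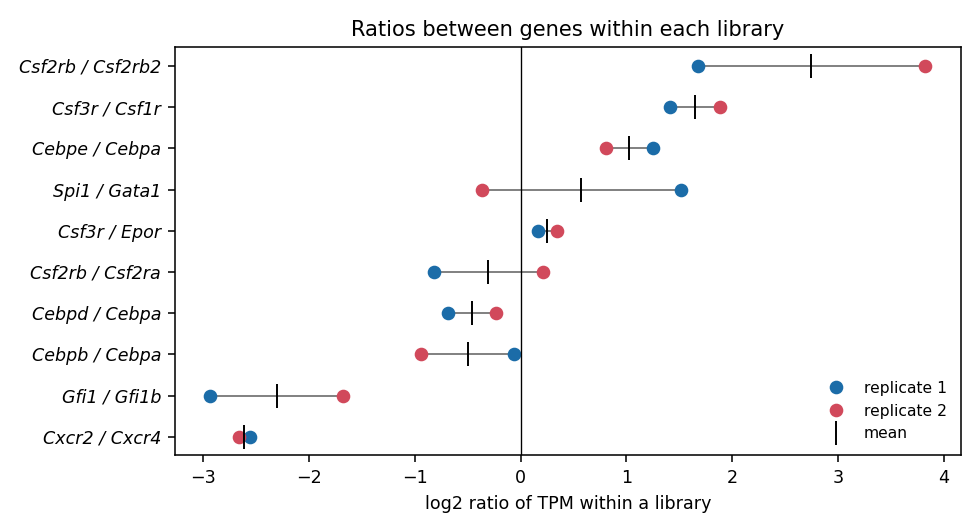
Log2 ratio of TPM between 2 genes of a library, the gene named first over the other, with a point for each library and a tick for the mean. Cxcr2 over Cxcr4 agrees most closely at -2.56 and -2.66, while Spi1 over Gata1 lies at 1.52 and -0.37, on either side of 0.

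The pathways around these genes were measured with lists named by function, and each count of genes at a rescaled TPM of 1 in both libraries stands beside the 42.9% of all nuclear protein-coding genes. Relatives of the C/EBP genes reached 1 in 8 of 10 cases, with medians of 11.1 and 9.51. Atf4, a bZIP factor of the stress response, led at 110 and 86.9 rescaled TPM, above every C/EBP member, and Ddit3, a C/EBP relative that forms dimers with them, had 36.4 and 49.2. Other myeloid factors reached 1 in 19 of 22 cases, with medians of 17.0 and 17.5, led by Runx1 at 116 and 157 and Myb at 78.7 and 101. The erythroid counterparts reached 1 in 9 of 9 cases with higher medians of 60.5 and 76.9, led by Lmo2, a bridge in the GATA1 complex, at 846 and 845. Lowest of the 9 was Gata2, a factor of progenitors and mast cells, at 9.62 and 3.92, equal to Cebpa in replicate 1 and below every C/EBP member in replicate 2.

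Of the other cytokine receptors 21 of 26 reached 1, with medians of 12.4 and 10.5, below the level of Csf3r and Csf2rb. Interferon receptor genes led them, Ifnar2 at 160 and 129 rescaled TPM and Ifngr1 at 100.3 and 96.1, and Osmr was lowest with 0 and 4 counts. Downstream, 21 of 24 genes of JAK-STAT and receptor signalling reached 1, with medians of 15.9 and 19.8. The kinase Pim1, a STAT target, had 166 and 150 rescaled TPM, Jak1 had 104 and 86.7, and Ptpn6, a phosphatase that damps these receptors, had 61.6 and 59.0. Socs2, a feedback inhibitor, was lowest, with 1 and 0 counts.

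Of the other chemoattractant receptors 12 of 17 reached 1, with medians of 3.21 and 6.47. Ccr2, the receptor of inflammatory monocytes, had 82.5 and 73.3 rescaled TPM, between Cxcr4 and Cxcr2, and the formyl peptide receptor Fpr2 had 52.8 and 68.4. Cxcr1, whose product shares chemokine ligands with that of Cxcr2, was at 0 counts in each library, a limit of at most 0.773 and 0.488 rescaled TPM, and so had Cxcr5, which allows up to 0.345 and 0.216. Genes that act behind Cxcr2 and Cxcr4 reached 1 in 16 of 17 cases, with medians of 47.9 and 49.0. Among them the integrin Itga4 had 249 and 246 rescaled TPM, the arrestin Arrb1 209 and 189, and the G protein Gnai2 187 and 194, while the receptor kinase Grk5 was lowest at 4.06 and 1.57.

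Genes listed as ligands of these receptors, and the platelet chemokine Pf4 listed with them, were mostly at 0. Only 3 of these 12 reached 1 in both libraries. Pf4 and Ppbp, chemokines of platelets, had 25.7 and 18.6, and 10.5 and 10.98 rescaled TPM, and Cxcl12, the ligand of Cxcr4, had 8.77 and 10.002. The G-CSF gene Csf3 had 0 counts, which allows up to 0.697 and 0.440 rescaled TPM, and the GM-CSF gene Csf2 had 0 counts, which allows up to 1.34 and 0.855. In all 8 ligand genes had 0 counts in both libraries, the others being Il3, Il5, Cxcl1, Cxcl3, Cxcl5 and Cxcl15. The receptors Csf3r and Csf2rb were thus measured without detectable RNA of their listed ligands, Csf3, Csf2, Il3 and Il5, at this depth.

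Genes on the granule lists, many of which the C/EBP factors are known to switch on, mostly stood above the factors themselves. The exception was Ltb4r1, which encodes a chemoattractant receptor and is also on that list. All 6 azurophil granule genes reached 1, with medians of 427 and 477 rescaled TPM, led by Mpo at 1821 and 1799 and with Ctsc lowest at 71.9 and 46.5. All 10 genes listed for specific and gelatinase granules did so, with medians of 269 and 241. Ngp led them at 7656 and 6940, and Ltb4r1 was lowest at 15.2 and 6.47. Cebpe, needed for specific granules, had 22.9 and 30.2 on the same scale, above Ltb4r1 in both libraries.

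Markers of other blood cells were present beside these genes. The 14 erythroid markers summed to 228085 and 229825 rescaled TPM. Of this, Hbb-bs gave 145781 and 153043 and Hba-a1 gave 65371 and 60669. The 15 neutrophil markers summed to 45098 and 47582, and the 14 monocyte and macrophage markers to 1838 and 2076. The 10 basophil, mast cell and eosinophil markers summed to 1002 and 867. Every marker of these lists reached 1. Medians lay closer than sums, at 1183 and 1044 for the erythroid list and 997 and 981 for the neutrophil list. The 10 myeloid regulators summed to 470.3 and 413 rescaled TPM, which is 1.04% and 0.869% of the neutrophil sum, 0.206% and 0.180% of the erythroid sum and 25.6% and 19.9% of the monocyte and macrophage sum. The neutrophil list was led by S100a9 at 14200.3 and 16292 and S100a8 at 13162 and 14511 rescaled TPM. Stfa2l1 was lowest of that list by mean, at 65.9 and 57.7. The part of neutrophils, monocytes or other cells in the levels of the 10 genes was not tested.

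Lymphoid, platelet and progenitor markers were sparser. Only 2 of 10 B lineage markers reached 1, with Ebf1, Igll1, Vpreb1 and Vpreb3 at 0 counts in both libraries, and sums of 260.3 and 256 rescaled TPM that were nearly all Ighm. Of T and NK markers 3 of 10 did so, with Cd3d and Cd8a at 0 and sums of 147 and 138, of which Nkg7 gave 108 and 126. The rest were 5 of 8 megakaryocyte markers with Treml1 at 0 (sums of 90.03 and 111), 4 of 10 stem and progenitor markers with Procr at 0 (57.1 and 50.8), and 2 of 8 dendritic markers (29.3 and 29.4). Spi1 and Cxcr4 are known to be made by several of these cell types.

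**Figure D5:**
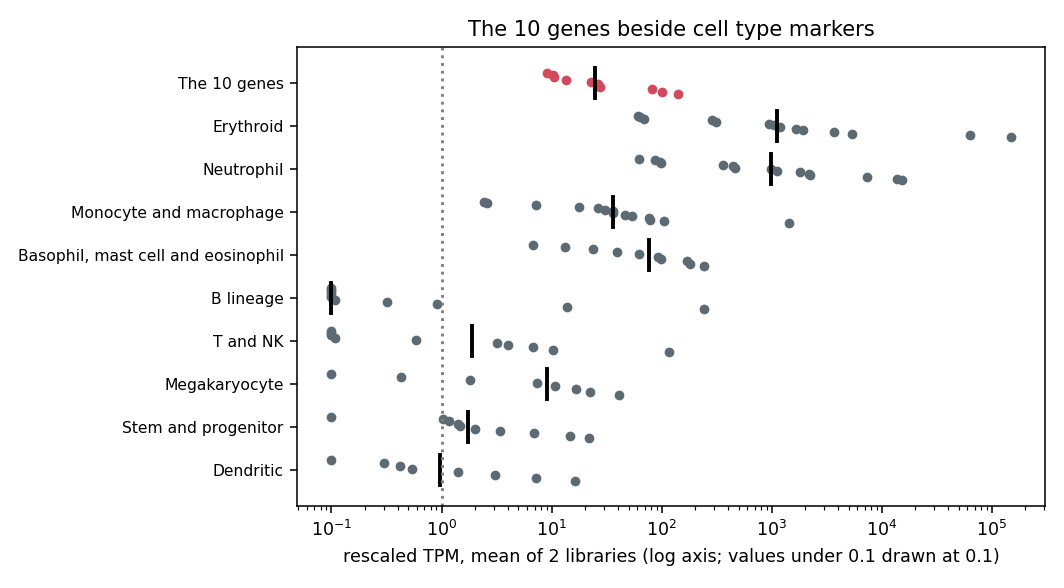
Mean rescaled TPM over the 2 libraries, on a log axis, of the 10 genes and of each gene in 9 cell type marker lists, with a bar at each list's median of means and values under 0.1 drawn at 0.1. The 10 genes lie between 9.11 and 139, far below most erythroid and neutrophil markers and among the monocyte and basophil ones.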

How the data were processed

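Total RNA of mouse erythroblasts was measured in 2 libraries, which the labels number as biological replicates 1 and 2 of 1 group. The deposited read-me names mm10 as assembly and GENCODE M4 as annotation. Which aligner and quantifier were run, and whether counting used strand, is not given in the sources used here. Per gene and transcript, the authors deposited expected counts (estimated counts, where a read with several matches is divided among them), TPM and FPKM over all rows, posterior mean estimates as a score, and for each transcript its percent of the gene's TPM. Of 43346 Ensembl gene rows, 42462 were matched, version left off, to the later release M21 on the same build, for symbols, coordinates and transcript names.

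Rescaled TPM was computed from the deposited TPM by dividing by the summed TPM of nuclear protein-coding genes, which multiplied values by 21.4 in replicate 1 and 19.6 in replicate 2. Expected counts were rounded to whole numbers and scaled with TMM factors of 0.962 and 1.04 (edgeR 4.0.16, 10012 genes kept); log2 ratios used a prior count of 2, and their intervals are exact binomial (Clopper-Pearson, 95%), computed without the prior count. DESeq2 1.42.0 gave alternative size factors of 0.800 and 1.25. The ratio and interval were tested on simulated counts with known fold changes. Other steps used Python 3.11.15 with pandas 2.3.3 and scipy 1.17.1. The depth behind each value is its expected count.

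The members, the 19 gene lists and the 10 pairs were chosen with earlier results of these data known. All 10 members are named, with the genes of each pair and, from each list, genes out of the 5 highest and the 1 lowest by mean; zero-count genes are named to account for them. Alternatives were the set of genes TPM was scaled over, posterior mean and FPKM estimates, other thresholds, pseudocounts, prior counts and scalings, and each library left out. Some items are not reported here.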

Additional observations from a re-analysis of the deposited data

How the results depend on the processing

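With 1 group of 2 libraries, no difference between conditions could be tested at any setting. No paired analysis was possible because there is a single group. The median level of the 10 genes, 23.6 rescaled TPM as the mean of the libraries, was 41.9 when TPM was rescaled over nuclear protein-coding genes without globins and 8.63 over all genes outside the mitochondrial genome, which follows from the change of divisor. At a deposited TPM of 1 the number of members counted was 6 in place of 10. The median log2 ratio of replicate 1 to replicate 2, -0.41, was reversed to 0.77 when counts were scaled to the spike-in RNA, and the cause was not tested. The other 27 settings of these summary results stayed within the spread or within 1.5 times the main count. Among them, the count of members over 1.5 times apart turned direction with the spike-in, to 6 members, all higher in replicate 1. The like share of all genes on the spike-in scale was not computed. By rescaled TPM the count was 5, where Spi1 joined as higher in replicate 1. For single genes, transcripts, pairs and lists, 102 settings stayed within the spread or within 1.5 times the count and 5 did not: Csf3r over Epor was reversed to -0.57 with Csf3r-201 alone, Cebpb was 8.92 by the posterior mean, Cxcr2 over Cxcr4 was -2.50 with a pseudocount of 0.1, and the posterior mean shares were 73.7% for Gfi1-203 and 96.1% for Cxcr2-202. Within their wide spread, Spi1 over Gata1 changed sign to -0.37 without replicate 1 and to -0.57 with Spi1-201 alone, and Csf2rb over Csf2ra to 0.21 without replicate 1. Depth limits Cebpd most, at 21 counts in replicate 1.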
